A study of Mus musculus with 2 samples.

Results

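The 8 genes described here are the paired loci of 4 brain microRNAs (miRNAs): Mir128-1 and Mir128-2, Mir129-1 and Mir129-2, Mir138-1 and Mir138-2, and Mir218-1 and Mir218-2. They were taken by name from the 2202 miRNA genes that the GENCODE M21 annotation and the deposited tables have in common, and all 8 were found. Small RNA was sequenced from tissue labelled as a layer of the hippocampus of male B6CASTF1/J mice, which are first-generation offspring of C57BL/6J and CAST/EiJ parents, at the age of 14 days. The study held 1 group with 2 biological replicates. Each label names 3 males by number, and neither says how their tissue was combined. One donor identifier stands in both labels, so the spread between these samples may be in part technical. The p-values of the exact binomial and Fisher tests below cover counting error only and compare these 2 libraries. No treatment, mutation or transgene is named.

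A miRNA is cut from a hairpin precursor, whose 5′ arm and 3′ arm can each give a mature strand of about the length of a small RNA read. The strand that is kept guides silencing proteins to messenger RNAs, mainly through its seed, bases 2 to 8. Each of these miRNAs is made from 2 separate loci that give the same guide strand, while the other arm differs between the loci. miR-128 is a neuronal miRNA known to restrain excitability, miR-138 is known to limit the size of dendritic spines, miR-129 is known for its part in homeostatic weakening of synapses, and miR-218 is known from motor neurons and from hippocampal pyramidal cells.

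The strands that the paired loci have in common come first, because a read made only of these letters can come from either locus. Sequences are from RefSeq (GRCm38.p6), 5′ to 3′, with the seed in capitals. The miR-128 strand lies on the 3′ arm and the others on the 5′ arm.
miR-128-3p: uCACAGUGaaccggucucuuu
miR-129-5p: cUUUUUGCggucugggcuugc
miR-138-5p: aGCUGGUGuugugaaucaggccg
miR-218-5p: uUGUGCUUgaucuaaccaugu
Each was found in exactly 1 other annotated miRNA hairpin, that of its own paralogue. The 4 seeds differ from each other, and only the miR-218-5p seed recurs in another mature strand of the table (miR-7002-3p).

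The strands of the opposite arm are shown because their letters differ between the loci. None was found whole in another miRNA hairpin.
miR-128-1-5p: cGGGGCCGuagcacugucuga
miR-128-2-5p: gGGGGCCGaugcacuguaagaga
miR-129-2-3p: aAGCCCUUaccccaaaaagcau
miR-138-1-3p: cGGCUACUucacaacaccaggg
miR-138-2-3p: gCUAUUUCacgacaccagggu
miR-218-1-3p: aAACAUGGuuccgucaagcacc
miR-218-2-3p: cAUGGUUCugucaagcaccgcg
The 3′ strand of Mir129-1 has no entry in the table. The miR-128 strands have the same seed and differ at 5 of 21 aligned letters, with 7 letters as their longest identical run. The miR-138 strands differ at 2 of 20 letters and the miR-218 strands at 1 of 19 when laid over each other without gaps, with longest runs of 9 and 10 letters. Their ends are shifted, so that their seeds are not the same. Of the 22 letters of miR-129-2-3p, 19 lie in a run that is also in the hairpin of Mir129-1, which leaves 3 letters that differ or lie beyond it.

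The whole hairpins show where these stretches lie. Capitals mark runs of 20 or more letters that are in both copies, and coordinates are those of mm10.
Mir128-1 (chr1:128202361-128202430, plus strand): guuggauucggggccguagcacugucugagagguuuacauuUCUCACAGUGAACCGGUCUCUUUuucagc
Mir128-2 (chr9:112118636-112118711, minus strand): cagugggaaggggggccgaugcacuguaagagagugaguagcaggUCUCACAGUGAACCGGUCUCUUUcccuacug
Mir129-1 (chr6:29022619-29022691, plus strand): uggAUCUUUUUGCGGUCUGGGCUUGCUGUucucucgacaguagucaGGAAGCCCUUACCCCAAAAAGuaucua
Mir129-2 (chr2:94241364-94241453, minus strand): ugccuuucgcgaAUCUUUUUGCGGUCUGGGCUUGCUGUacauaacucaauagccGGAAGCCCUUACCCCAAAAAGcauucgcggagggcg
Mir138-1 (chr9:122682876-122682974, plus strand): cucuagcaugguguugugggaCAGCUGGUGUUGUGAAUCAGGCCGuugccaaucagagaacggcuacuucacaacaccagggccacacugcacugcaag
Mir138-2 (chr8:94324311-94324381, plus strand): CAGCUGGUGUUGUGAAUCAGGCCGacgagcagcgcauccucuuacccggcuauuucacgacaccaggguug
Mir218-1 (chr5:48223942-48224051, plus strand): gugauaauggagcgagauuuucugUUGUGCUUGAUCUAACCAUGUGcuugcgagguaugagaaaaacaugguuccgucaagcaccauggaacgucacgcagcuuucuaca
Mir218-2 (chr11:35616816-35616925, plus strand): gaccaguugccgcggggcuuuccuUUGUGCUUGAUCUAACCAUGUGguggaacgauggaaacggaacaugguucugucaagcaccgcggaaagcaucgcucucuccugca
The shared runs are 23 letters in miR-128, 26 and 21 in miR-129, 24 in miR-138 and 22 in miR-218. They take up 64.4% of the Mir129-1 hairpin and 52.2% of that of Mir129-2, but 20% to 33.8% of the others. Of all 2202 genes, 1087 (49.4%) hold at least 1 stretch of 20 letters that also lies in a miRNA gene elsewhere.

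**Figure D1:**
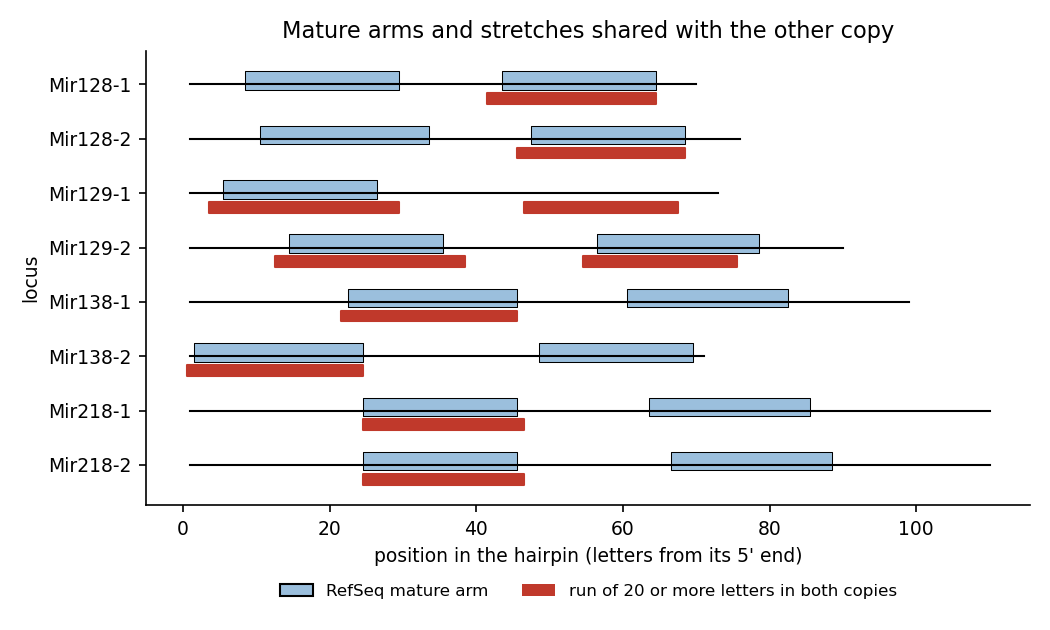
Each line is a hairpin, drawn to scale in letters from its 5′ end, with the RefSeq mature arms as blue boxes and runs of 20 or more letters found in both copies as red bars. In miR-128, miR-138 and miR-218 the red bar covers 1 arm, while in miR-129 red bars lie on both sides of the hairpin.

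Of the 8 loci, 4 lie in introns of protein-coding genes. Introns are numbered here in the transcript with the most introns among those that span the locus. Mir128-1 (ENSMUSG00000065520.2) is in intron 19 of R3hdm1, which encodes a protein with an RNA-binding domain, 99.06 kb from the start of the gene. Mir128-2 (ENSMUSG00000065441.2) is in intron 19 of Arpp21, which encodes a phosphoprotein regulated by cyclic AMP, 117 kb from its start. Mir218-1 (ENSMUSG00000065603.1) is in intron 16 of Slit2 and Mir218-2 (ENSMUSG00000065583.1) in intron 14 of Slit3, 241 and 496 kb from the start. Slit2 and Slit3 encode secreted axon guidance proteins that bind Robo receptors. The other loci lie in non-coding genes. Mir129-2 (ENSMUSG00000065511.1) is in an intron of the long non-coding RNA gene Mir670hg, Mir129-1 (ENSMUSG00000065469.1) in an exon of Gm3294 and Mir138-2 (ENSMUSG00000065512.3) in an exon of C78859, both annotated as long intergenic RNAs. Mir138-1 (ENSMUSG00000065414.1) is in an exon of Gm47135, annotated as a transcribed pseudogene. The tables hold miRNA genes only, so host transcripts were not measured.

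Replicate 1 had 3793934 counts assigned to miRNA genes and replicate 2 had 2554997, out of 13791106 and 7239133 reads in the tables. Reads that mapped to several places were given to no gene. They numbered 3629983 in replicate 1 and 2714981 in replicate 2, which is 26.3% and 37.5% of reads. How many of them came from the shared strands is not in the files. The values below are therefore counts of reads that were placed at 1 locus, and they do not measure the total of each mature miRNA. Levels are given as counts per 1000000 (CPM). Of the markers listed for neurons, 7 of 11 were at 2 CPM or more in both libraries and none was at 0 in both, with a summed level of 22157 CPM in replicate 1 and 12875 CPM in replicate 2. The lower sum rested on Mir132, at 17266 and 5947 CPM. Without it the other 10 neuron markers summed to 4891 and 6928 CPM. The exact binomial test described below covered 8 of the 11, Mir132 included. In it 5 were higher in replicate 2 (26.8% of all tested genes), and only Mir132 was higher in replicate 1 (25.2% of all tested genes). All 3 markers listed for each of oligodendrocytes, myeloid cells, vessel wall, choroid plexus with ciliated cells, and red cells were detected too. The summed level was 4060 CPM in replicate 1 and 1247 CPM in replicate 2 for oligodendrocytes. Mir219a-2 (3014 and 743 CPM) and Mir338 (1029 and 485 CPM) were higher in replicate 1, while Mir219a-1 stood at 16.9 and 19.2 CPM. Markers of choroid plexus and ciliated cells summed to 1962 and 916 CPM. The largest fall among them was that of Mir34c (857 and 109 CPM), beside Mir204 (743 and 581 CPM) and Mir449a (363 and 225 CPM). Vessel wall markers summed to 14332 and 11076 CPM. Among the vessel wall markers Mir126a was higher in replicate 1 (11308 and 7829 CPM) and Mir143 in replicate 2 (2833 and 3069 CPM). The markers listed as myeloid summed to 1044 and 1095 CPM, nearly all of it from Mir150 (981 and 1047 CPM). Mir142 was at 54.6 and 45.8 CPM and Mir223 at 8.17 and 3.13 CPM. Red cell markers summed to 75.4 and 192 CPM. Of these, Mir451a (41.9 and 162 CPM) and Mir144 (8.96 and 16.8 CPM) were higher in replicate 2, and Mir486 (24.5 and 12.9 CPM) in replicate 1. Of 5 muscle markers 4 were at 0, and each of those shares a stretch with another gene. The part of these differences in the results below was not tested. In bulk tissue, fewer cells of a type and less RNA per cell cannot be told apart.

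By the mean of both libraries the miR-128 loci were the most abundant pair, although miR-138 was higher in replicate 1. CPM here are reads in the sense of the gene per 1000000 assigned to miRNA genes, not divided by length, since a read can span a whole mature strand. Mir128-1 had 16558 counts (4364 CPM) in replicate 1 and 18612 counts (7285 CPM) in replicate 2, a mean of 5824 ± 2065 CPM (SD, n = 2). Mir128-2 had 5617 counts (1481 CPM) and 5935 counts (2323 CPM), a mean of 1902 ± 596 CPM. Both loci were higher in replicate 2, and the lower value of Mir128-1 was above the higher value of Mir128-2. Together they had 5845 CPM in replicate 1 and 9607 CPM in replicate 2, a mean of 7726 ± 2661 CPM and the highest mean sum among 43 pairs of miRNA genes whose names end in -1 and -2 with no further copy.

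The miR-138 loci had 6959 CPM in replicate 1 and 5335 CPM in replicate 2 in sum, a mean of 6147 ± 1149 CPM. They stood above the miR-128 pair in replicate 1 and below it in replicate 2. Mir138-1 had 19310 counts (5090 CPM) in replicate 1 and 8765 counts (3431 CPM) in replicate 2, a mean of 4260 ± 1173 CPM. Mir138-2 had 7093 counts (1870 CPM) and 4865 counts (1904 CPM), a mean of 1887 ± 24.4 CPM. Mir138-1 was higher in replicate 1 while Mir138-2 stood at nearly the same level in both, and the values of the loci did not overlap.

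The miR-129 loci had 1899 ± 182 CPM in sum, the sixth highest of the 43 pairs. Mir129-2 had 4689 counts (1236 CPM) in replicate 1 and 3868 counts (1514 CPM) in replicate 2, a mean of 1375 ± 197 CPM. Mir129-1 had 2028 counts (535 CPM) and 1314 counts (514 CPM), a mean of 524 ± 14.3 CPM. Here the copy numbered 2 was the higher in each library. Mir129-2 overlaps Mir129b, a miRNA gene on the opposite strand. Mir129b had 2 counts on its own strand in each library, and 4671 and 3860 on the strand of Mir129-2. In the deposited column that ignores strand, where reads on 2 overlapping genes go to neither, Mir129-2 had only 18 and 8 counts.

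The miR-218 loci were far lower, at 144 ± 27 CPM in sum. Mir218-2 had 545 counts (144 CPM) in replicate 1 and 268 counts (105 CPM) in replicate 2, a mean of 124 ± 27.4 CPM. Mir218-1 had 75 counts (19.8 CPM) and 52 counts (20.4 CPM), a mean of 20.06 ± 0.413 CPM. With so few reads the bounds of Mir218-1 (Wilson, 95%) were 15.8 and 24.8 CPM in replicate 1, and 15.5 and 26.7 CPM in replicate 2. Such intervals cover counting error only, since reads copied by PCR are not separate molecules.

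All 8 loci were detected at 2 CPM or more in both libraries, as were 426 of the 2202 genes. Their mean levels ranked from 36 (Mir128-1) to 285 (Mir218-1) among all genes, and their median of 1631 CPM compares with 88.3 CPM over the detected genes. As a share of all assigned counts the loci held 1.47% in replicate 1 (Wilson bounds 1.46 and 1.49) and 1.71% in replicate 2 (bounds 1.69 and 1.73), or 1.59% ± 0.167 (SD, n = 2). In order of mean level they ran Mir128-1, Mir138-1, Mir128-2, Mir138-2, Mir129-2, Mir129-1, Mir218-2 and Mir218-1. The ranges of Mir128-1 and Mir138-1 over the libraries overlapped, as did those of Mir128-2 and Mir138-2 and of Mir128-2 and Mir129-2. From Mir138-2 downward no neighbouring ranges overlapped.

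**Figure D2:**
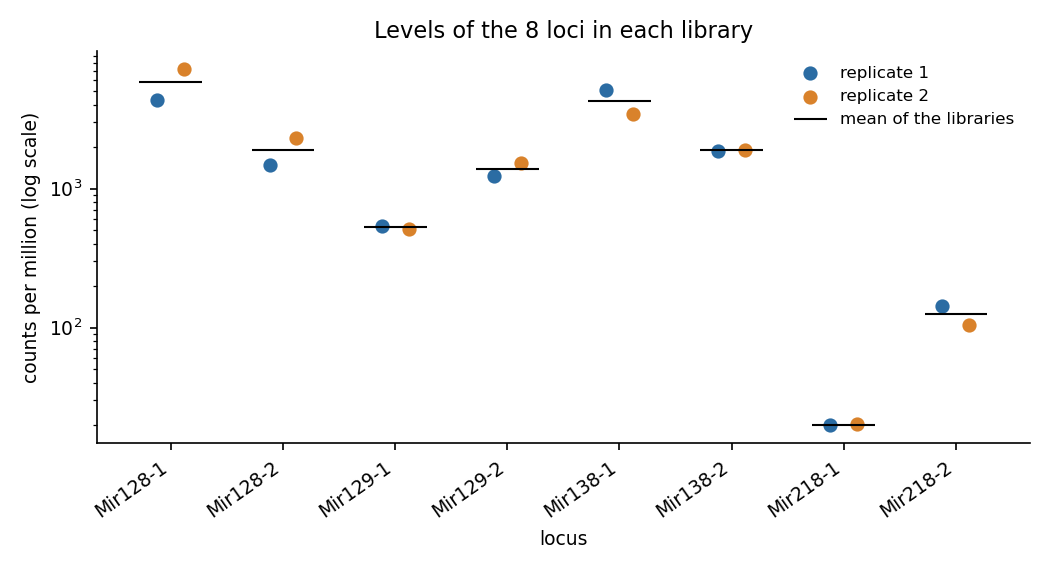
Points give the level of each locus in replicate 1 (blue) and replicate 2 (orange) in CPM on a log axis, and lines the mean of both. Within each miRNA the 2 loci do not overlap, and levels run from 20.06 CPM for Mir218-1 to 5824 CPM for Mir128-1.

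The study's files allow the loci of each miRNA to be compared as shares of the pair's counts, which do not depend on the size of a library. In miR-128, the R3hdm1 locus held 74.7% of counts in replicate 1 (exact 95% interval 74.1 to 75.2) and 75.8% in replicate 2 (75.3 to 76.4). Its ratio to the Arpp21 locus was 2.95 and 3.14, a mean log2 ratio of 1.60 ± 0.06 (SD, n = 2). Both loci were higher in replicate 2, by 1.67-fold for Mir128-1 and 1.57-fold for Mir128-2. Mir138-1 held 73.1% of its pair's counts in replicate 1 (72.6 to 73.7) and 64.3% in replicate 2 (63.5 to 65.1), a ratio to Mir138-2 of 2.72 and 1.80 and a mean log2 ratio of 1.15 ± 0.42. From replicate 1 to replicate 2 the share of Mir138-1 decreased by 8.83 percentage points.

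In the other pairs copy 2 took most of the counts. Mir129-1 held 30.2% in replicate 1 (29.1 to 31.3) and 25.4% in replicate 2 (24.2 to 26.6), so that Mir129-2 was 2.31-fold and 2.94-fold higher, with a mean log2 ratio of copy 1 to copy 2 of -1.38 ± 0.25. Mir218-1, in Slit2, held 12.1% (9.63 to 14.9) and 16.2% (12.4 to 20.8), and Mir218-2, in Slit3, was 7.23-fold and 5.11-fold higher, a mean log2 ratio of -2.60 ± 0.35. The direction was the same in both libraries in all 4 pairs, and every mean log2 ratio was larger than its SD. With 2 libraries no permutation test of the ratios is informative, and none was run. Whether a locus with fewer counts makes less of the miRNA, or only fewer reads that can be placed, was not tested.

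**Figure D3:**
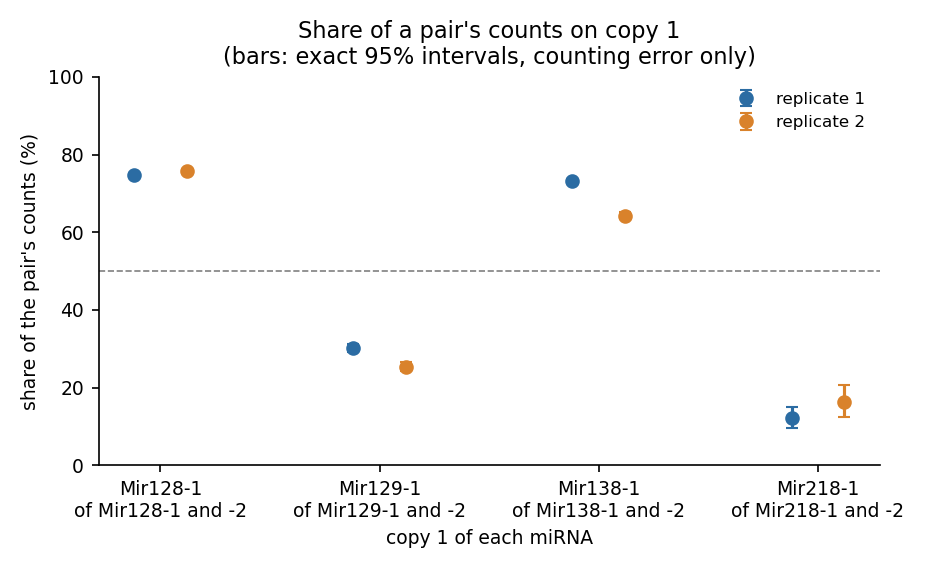
Points give the share of a pair's counts that fell on copy 1, in percent, for each miRNA and library, with exact 95% intervals for counting error that are mostly narrower than the points. Copy 1 holds 64.3% to 75.8% in miR-128 and miR-138, and 12.1% to 30.2% in miR-129 and miR-218.

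Fisher's exact test of locus by library asked whether the shares differed between the libraries by more than counting error, with Benjamini-Hochberg adjustment over the 23 pairs of copies with at least 10 counts. Of those pairs, 52.2% differed. The shares differed in 3 of the 4 pairs described here, which is near that background with so few pairs. They were miR-138 (adjusted p = 2.84e-72), miR-129 (adjusted p = 3.31e-08 in Fisher's exact test), where the share of Mir129-1 decreased by 4.84 points, and miR-128, where the exact test passed on a difference of only 1.15 points (adjusted p = 0.00921). In miR-218 the share of Mir218-1 was 4.15 points higher in replicate 2, which did not pass the exact test (adjusted p = 0.133) at 75 and 52 counts of Mir218-1. A difference found here is one between 2 libraries of the same condition.

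The ratios of these 4 miRNAs lay within those of the other 2-copy miRNAs. Both loci were detected in 16 of the other 39 pairs. In 15 of these, an identical mature strand is listed for both copies. A strand with no entry counts as no match here. Their median absolute log2 ratio was 1.92, with a range from 0.60 to 6.69, against a median of 1.49 for miR-128, miR-129, miR-138 and miR-218. Of the 16 pairs, 4 had smaller ratios than all of the 4 described here, 7 lay in their range and 5 had larger ones. The higher copy was the same in both libraries in 14 of the 16. The change of the log2 ratio between the libraries had a median size of 0.42 in the 4 pairs and 0.46 in the 16. The most abundant of the others were Mirlet7c-1 and Mirlet7c-2 at 3670 ± 819 CPM in sum, Mir181b-1 and Mir181b-2 at 2814 ± 661 CPM, and Mir125b-1 and Mir125b-2 at 2417 ± 105 CPM. In the Mir181b pair copy 1 held 0.954% ± 0.0167 of counts, a far more uneven split than in miR-128. These are descriptions with no test.

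**Figure D4:**
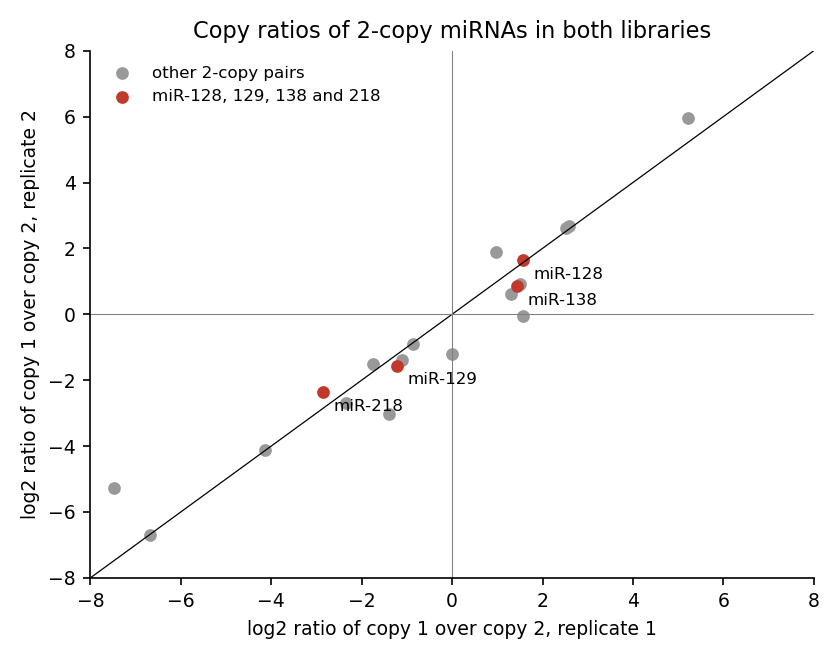
Each point is a miRNA with 2 copies that were both detected, with the log2 ratio of copy 1 over copy 2 in replicate 1 on the x axis and in replicate 2 on the y axis, and a line where both are equal. The red points of miR-128, miR-129, miR-138 and miR-218 lie near the line, at mean ratios of 1.60, -1.38, 1.15 and -2.60.

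Agreement of the libraries was next compared locus by locus. Counts of 507 genes with at least 10 in sum were compared by an exact binomial test, two-sided, against the share of each library in all assigned counts. After Benjamini-Hochberg adjustment 52.1% of them differed, so that a call says little by itself. Of the 8 loci, 5 differed, 2 of them higher in replicate 1 (25.2% of all tested genes) and 3 higher in replicate 2 (26.8%). Higher in replicate 2 were Mir128-1 and Mir128-2, by log2 ratios of 0.74 and 0.65, and Mir129-2 by 0.29. Their adjusted p-values in the exact test were too small for the software to represent for Mir128-1, 8.5e-128 for Mir128-2 and 6.28e-20 for Mir129-2. Higher in replicate 1 were Mir138-1 by 1.48-fold (adjusted p = 3.99e-214, exact binomial test) and Mir218-2 by 1.37-fold (adjusted p = 5.68e-05, same exact test).

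Mir129-1, Mir138-2 and Mir218-1 did not pass, at log2 ratios of -0.06, 0.03 and 0.04 and adjusted p of 0.389, 0.435 and 0.966 in the exact binomial test. In miR-129, miR-138 and miR-218 the higher locus passed and the lower did not. The contrast of the loci itself is the Fisher test above, which miR-129 and miR-138 passed and miR-218 did not. The median absolute log2 ratio of the 8 loci was 0.37, beside 0.42 over the 328 genes at a mean CPM of at least 10. Mir128-1, the locus farthest apart, moved more than 79% of those genes. A further exact test allowed for spread between replicates, with the dispersion that edgeR estimated over all genes from the same 2 libraries (a coefficient of variation of 0.377). Under it 0 of the 8 passed, 0 had an unadjusted p under 0.05, and 0.394% of genes passed. Since that dispersion comes from the same 2 libraries, with 1 on each side, little could pass, and the outcome does not bear on the size of the differences.

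The size of these differences depends on the scale. Reads assigned to miRNA genes were 27.5% of all reads in replicate 1 and 35.3% in replicate 2, so that scaling to all reads raised the log2 ratio of a gene by 0.36, or by slightly less at low levels where the 0.5 added to CPM weighs (Mir218-1, from 0.04 to 0.37). On that scale, an alternative chosen after the data were seen, Mir129-1 turned from -0.06 to 0.30 and Mir138-2 moved from 0.03 to 0.39, and both passed the exact binomial test (adjusted p = 1.2e-08 and 3.02e-45). Mir218-2 stood at -0.09 and no longer passed the exact test (adjusted p = 0.507). Mir138-1 alone was then higher in replicate 1 (14.8% of all tested genes), and 5 loci were higher in replicate 2 (40%). The copy ratios within a miRNA are the same on either scale.

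**Figure D5:**
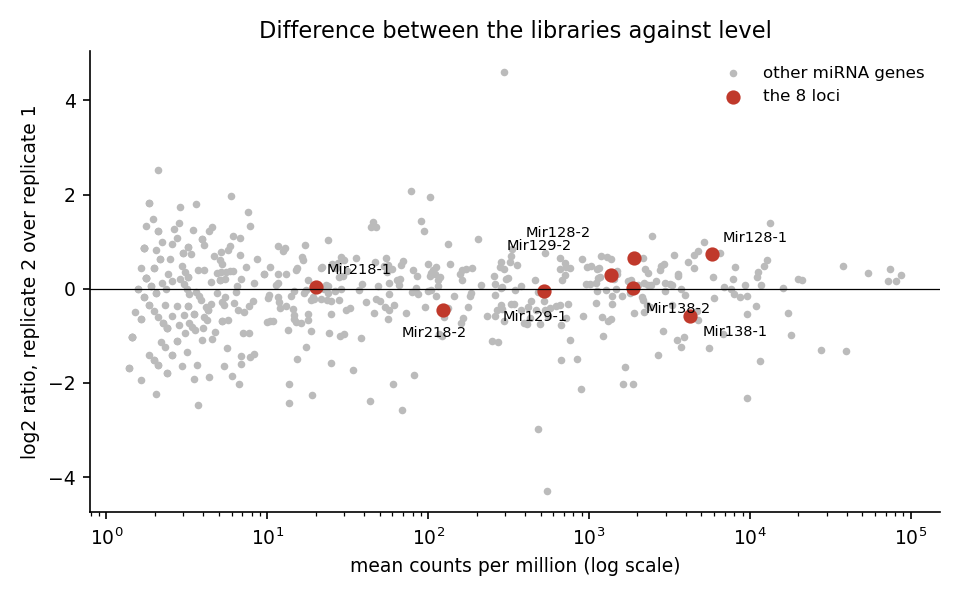
The log2 ratio of replicate 2 over replicate 1 is plotted against mean CPM on a log axis for the 507 genes tested, with the 8 loci in red. The loci lie between -0.57 (Mir138-1) and 0.74 (Mir128-1), inside the cloud of other genes.

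Other lists of neural miRNAs give the setting. The 3 copies each of miR-124 and miR-9, the most typical miRNAs of neurons and neural progenitors, had 2 of 6 loci detected, Mir9-3 at 70.2 ± 20.3 CPM and Mir9-1 at 17.1 ± 7.85 CPM, and Mir124a-1 stood at 2.36 ± 1.13 CPM. All 6 share a stretch of 20 letters with another gene, as do the 8 loci of the pairs, and in the 3 miR-9 loci both mature arms are found in another hairpin. In the pairs only 1 arm is, apart from Mir129-1, for which 1 strand is listed. Across all genes with 2 listed arms, the median level was 2.76 CPM for 579 genes with both arms in 1 hairpin only, 24.9 CPM for 61 genes with 1 arm in another hairpin, 7 of them from the pairs, and 0 CPM for 20 genes with both arms in another hairpin. In those groups 48.7%, 65.6% and 20% of genes were detected. Single-locus neuronal miRNAs, which share no such stretch, were all detected, 7 of 7, with a median of 4100 CPM. Highest were Mir149 (17231 ± 4255 CPM), Mir132 (11607 ± 8004 CPM) and Mir330 (6020 ± 564 CPM). In the exact binomial test 3 of the 7 were higher in replicate 1 (25.2% of all tested genes) and 3 in replicate 2 (26.8%). With 52.1% of all tested genes called, these counts say little by themselves.

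Genes near the loci and genes with like levels complete the description. Mir670 lies in the same host as Mir129-2, 19.8 kb away, and had 37.7 CPM in replicate 1 and 40.3 CPM in replicate 2, far below Mir129-2. For the other 7 loci the nearest miRNA gene lay at least 128 kb away. Likeness was measured as the sum over the 2 libraries of the absolute difference in log2(CPM + 0.5) from the higher locus of each pair. Nearest to Mir128-1 was Mir409 (sum 0.30), at 4819 and 8138 CPM. Mir138-1 was nearest to Mir328 (0.28), Mir129-2 to Mir1839 (0.10) and Mir218-2 to Mir873a (0.14). Over only 2 libraries such likeness says no more than that the levels were close.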

How the data were processed

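MicroRNA sequencing of total RNA was analysed in 2 libraries of 1 group. The authors deposited raw counts of reads per miRNA gene of GENCODE M21 on mm10, per the accompanying text of the deposited files. The aligner, the counter and any read filter were not given in the sources used here. Each table has 3 count columns with no header, for either strand, the gene's strand and the opposite strand. Counts in the sense of the gene were taken, whose column has by far the larger total of the stranded ones. The 4 rows of unassigned reads stayed out of library sizes: in replicates 1 and 2, 41.3% and 20.7% of reads were unmapped, 26.3% and 37.5% multimapping and 4.85% and 6.51% outside miRNA genes. The floor that 0 counts allow (3 counts) was 0.791 CPM in replicate 1 and 1.17 CPM in replicate 2.

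CPM were computed per 1000000 assigned counts, and log values as log2(CPM + 0.5). Copy ratios used counts plus 0.5. Intervals are 95% Wilson for levels and exact Clopper-Pearson for shares of a pair. All genes with at least 10 counts in sum were tested between libraries with the exact binomial test, Benjamini-Hochberg adjusted at 0.05, as no quasi-likelihood fit is possible with 1 library on each side. Pairs were tested with Fisher's exact test. Tests were checked on simulated counts that held counting error only. That check does not bear on the further spread between real libraries. Sampling noise alone does not cover the difference of the libraries (chi-square 264253 on 506 degrees of freedom), which were counted as 2 samples. edgeR 4.0.16 gave the dispersion and TMM factors and DESeq2 1.42.0 size factors, in R 4.3.3; other steps used Python 3.11.15, pandas 2.3.3 and scipy 1.17.1. Hairpins came from GENCODE transcripts and mature strands from RefSeq GRCm38.p6, in which all 8 loci were matched with identical hairpins. Matches were sought among annotated miRNA hairpins only, in either orientation for stretches, and not in the genome. Named are the 8 loci and their hosts, and the 3 genes with the highest mean CPM in the 3-copy and single-locus neural lists. Also named are the 3 most abundant other 2-copy pairs and the gene nearest in level to the higher locus of each pair. Of the cell type markers, only Mir132 is named for neurons and none for muscle, while the other lists are named in full. Mir129b and Mir670 were named after their values were seen. Members and lists were chosen with earlier results of these data known.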

Additional observations from a re-analysis of the deposited data

How the results depend on the processing

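Of 157 values under alternative settings, 132 were labelled the same. Levels, shares and ratios so labelled stayed within the SD, or kept their direction and their side of the threshold. Counts of calls had no SD, and some so labelled changed. In the column that ignores strand, 4 loci passed the exact binomial test in place of 5. There 2 pairs passed Fisher's exact test in place of 3. TMM scaling, DESeq2 size factors, other pseudocounts, count filters, detection at 1 or 10 CPM and stretches of 18 or 22 letters changed no call. The 28 values with a library left out say nothing on stability, as 1 of 2 libraries always lies within the SD of their mean and no test was among them. The order of Mir128-1 and Mir138-1 turned between the libraries. Per 1000000 of all reads, unassigned ones included, the mean levels were 1886 for Mir128-1, 614 for Mir128-2, 164 for Mir129-1, 437 for Mir129-2, 1305 for Mir138-1, 593 for Mir138-2, 6.31 for Mir218-1 and 38.3 for Mir218-2, and the loci held 0.504% of reads. With those totals, chosen after the data were seen, the library log2 ratio of Mir129-1 reversed to 0.30, and 6 loci passed in place of 5, with Mir129-1 and Mir138-2 gained and Mir218-2 lost. In the column that ignores strand, Mir129-2 was at 4.18 CPM, since reads on its overlap with Mir129b are given to neither gene there. The miR-129 log2 ratio of copy 1 to copy 2 was then reversed, at 7.02, its change between libraries was 0.50 and the library log2 ratio of Mir129-2 was -0.53, with adjusted p of 0.583 and 0.539 in the exact tests. In that column Mir129-1 stood at 557, Mir138-2 at 2004 and Mir218-1 at 21.3 CPM, by its smaller total. With edgeR's common dispersion 0 of the 8 loci passed, against 5 in the exact binomial test, and 2 of 507 genes did, with a spread taken from the libraries compared. No paired analysis was possible because the study holds 1 group. Depth limits Mir218-1 most, at 75 and 52 counts.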
